A study of Homo sapiens with 2 samples.

Results

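The IFIT and IFITM families were followed in PC3 cells after knockdown of SUB1, a transcriptional coactivator that binds single-stranded DNA. The members were the probes for genes named IFIT1, IFIT2, IFIT3, IFIT5, IFITM1, IFITM2 or IFITM3 on the array. The rule gave 9 probes for 7 genes, out of 41000 probes for 30482 genes. The IFIT family had 6 probes for 4 genes and the IFITM family had 3 probes for 3 genes. PC3 is an established human prostate cancer line derived from a metastasis. RNA was taken 72 h after a first transfection, with a second identical transfection at 24 h, and each of 2 dual-colour Agilent arrays on 1 slide set cells given a SUB1 siRNA duplex (Cy5) beside cells given non-targeting (Non-T) siRNA (Cy3). SUB1 siRNA 1 had 1 array and SUB1 siRNA 2 had 1 array, and nothing else differed between the groups by the labels. SUB1 siRNA was always in Cy5, so knockdown and dye cannot be told apart, and the ratios of each siRNA stand without a replicate. Whether both arrays carried the same Non-T extract is not stated.

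Type I interferons signal through JAK kinases to a transcription factor complex that includes IRF9 and binds interferon response elements in promoters and switches on antiviral genes. Proteins of the IFIT family are built of tetratricopeptide repeats and lie in the cytoplasm, where several of them bind foreign RNA by its end structure. IFITM proteins are small membrane proteins that hinder the fusion of viruses with the plasma membrane or with endosomes. The genes of each family lie side by side, the IFIT genes on chromosome 10 and the IFITM genes on chromosome 11.

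The promoters of the families are shown first because interferon response elements are how these genes are known to be switched on. Promoters were taken from RefSeq (GRCh38.p14), each reaching from 250 bases before the transcription start to 50 bases after it. The core searched was GAAANNGAAA, on both strands, so that on the opposite strand it reads TTTCNNTTTC. A matching promoter was at hand for 5 of the 7 genes, namely IFIT1, IFIT3 with 2 start sites, IFIT5, IFITM1 and IFITM3. In the sequences, written 5′ to 3′ on the strand of the gene, capitals mark the matches that lie wholly upstream of the start, with flanking bases in lower case.
IFIT1, chr10:89392492-89392544, + strand: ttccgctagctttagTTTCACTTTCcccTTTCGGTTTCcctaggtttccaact
IFIT3 start 1, chr10:89327826-89327899, + strand: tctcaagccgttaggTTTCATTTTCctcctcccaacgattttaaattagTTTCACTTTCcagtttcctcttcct
IFIT3 start 2, chr10:89332420-89332459, + strand: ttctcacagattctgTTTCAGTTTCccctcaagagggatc
IFIT3 start 2, chr10:89332463-89332502, + strand: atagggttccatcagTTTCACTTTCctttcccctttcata
IFIT5, chr10:89414508-89414567, + strand: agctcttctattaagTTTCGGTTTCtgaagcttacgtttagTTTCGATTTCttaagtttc
IFITM1, chr11:313985-314024, + strand: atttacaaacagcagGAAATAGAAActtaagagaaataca
IFITM3, chr11:320871-320927, - strand: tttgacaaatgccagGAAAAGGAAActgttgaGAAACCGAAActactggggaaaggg

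All 6 promoters of these 5 genes held the core at least 2 times, and that of IFIT5 held it 3 times. Among all 35116 promoters of the same length, 3.57% held it. In the IFIT promoters every match read TTTCNNTTTC along the gene, and in the IFITM promoters every match read GAAANNGAAA. The first base of the outermost match lay 156 bases before the first start of IFIT3, 116 before the start of IFIT1, 52 before that of IFITM3, 45 before that of IFIT5 and 40 before that of IFITM1. IFIT5 and IFITM1 each had 1 further match that ran across the start. No match was found in the promoters of IFIT1B, which lies within the IFIT cluster, or of IFITM5, which lies beside the IFITM cluster. These matches are letters in a window, and binding of a factor there was not measured.

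**Figure D1:**
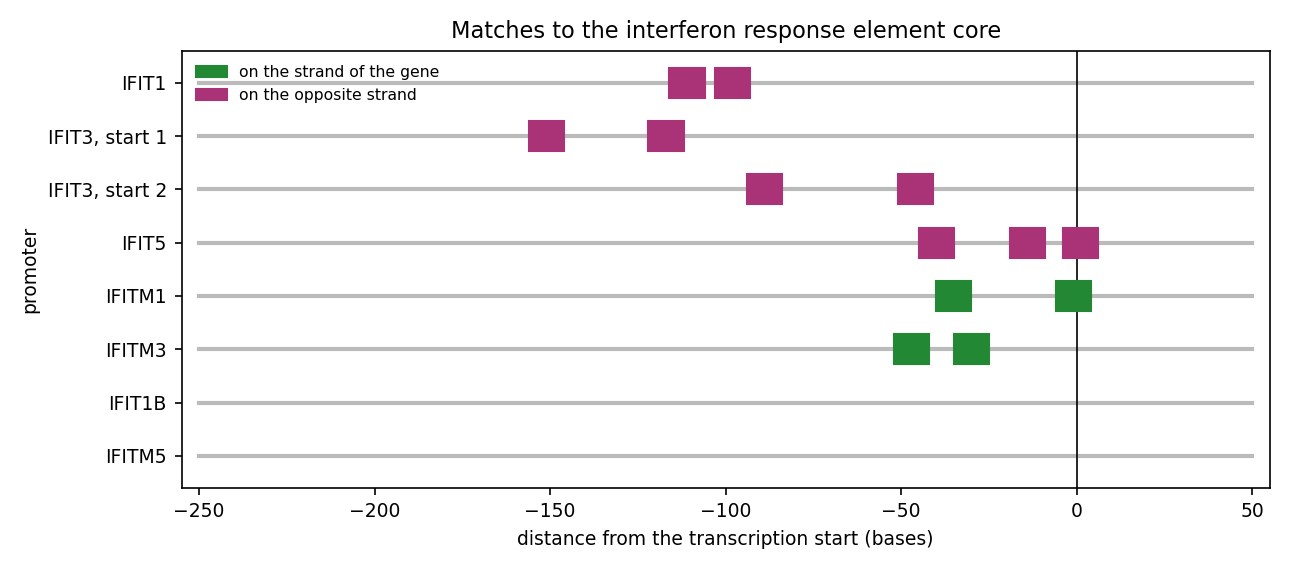
Positions of the matches to the 10-base core in promoters of the families, by distance in bases from the transcription start (0), with colour giving the strand of the match. The 4 IFIT promoters carry 9 matches, all on the strand opposite to the gene, the 2 IFITM promoters with matches carry 4, all on the strand of the gene, and IFIT1B and IFITM5 carry none.

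The arrays were checked before the members were read. Each array had 43376 gene spots, of which 112 (siRNA 1) and 100 (siRNA 2) were flagged as outliers, and 25673 probes for 19218 genes passed the filter on dim probes (well above background on each array, in 1 channel or both). The targeted gene, SUB1, read -3.30 with siRNA 1 and -3.26 with siRNA 2 as log2 of SUB1 siRNA over Non-T, which left 10.2% and 10.4% of the Non-T level at its brightest probe. Its 4 probes ranged from -3.75 to -1.81 and from -3.50 to -1.57, and the least lowered one left 28.6% and 33.8%. Of the markers fixed for cell types, 5 of 5 epithelial genes were well above background in all 4 signals. So were 2 of 4 leukocyte genes and 2 of 3 fibroblast genes. The defining leukocyte gene PTPRC was above background in none, and the part of other cells in the results was not tested. In RNA from whole cultures, more cells that use a gene and more RNA per cell cannot be told apart.

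All 9 probes of the families were well above background in all 4 signals and none was saturated. Each was printed as a single spot, so its technical error was read from other probes. The 209 kept probes with 10 spots had spot SDs of the log2 ratio with a median of 0.078 (siRNA 1) and 0.074 (siRNA 2) and a highest value of 0.174 and 0.164. These SDs describe spots of 1 hybridisation and hold no difference between cultures. Signals given below are mean spot intensities in scanner units before any correction, and ratios are log2 values after background correction and loess normalization within each array.

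With siRNA 2, IFIT2 and IFITM1 were at least 2-fold higher than with Non-T siRNA, IFIT1 was 1.99-fold higher, and IFIT3, IFITM2 and IFITM3 had ratios between 0.44 and 0.67. With siRNA 1, no member reached 2-fold in either direction, and the 7 genes lay between -0.52 and 0.39. By the 2-fold rule of the study's methods, 2 of 7 genes were higher with siRNA 2, where 0.614% of all 19218 genes were, and 0 of 7 with siRNA 1, where 0.208% were. None of the 7 was at least 2-fold lower, against 1.07% of all genes with siRNA 2 and 0.609% with siRNA 1. With 1 array per siRNA no test was possible for these values. The members were chosen with earlier results of these data known, so the counts are a description.

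**Figure D2:**
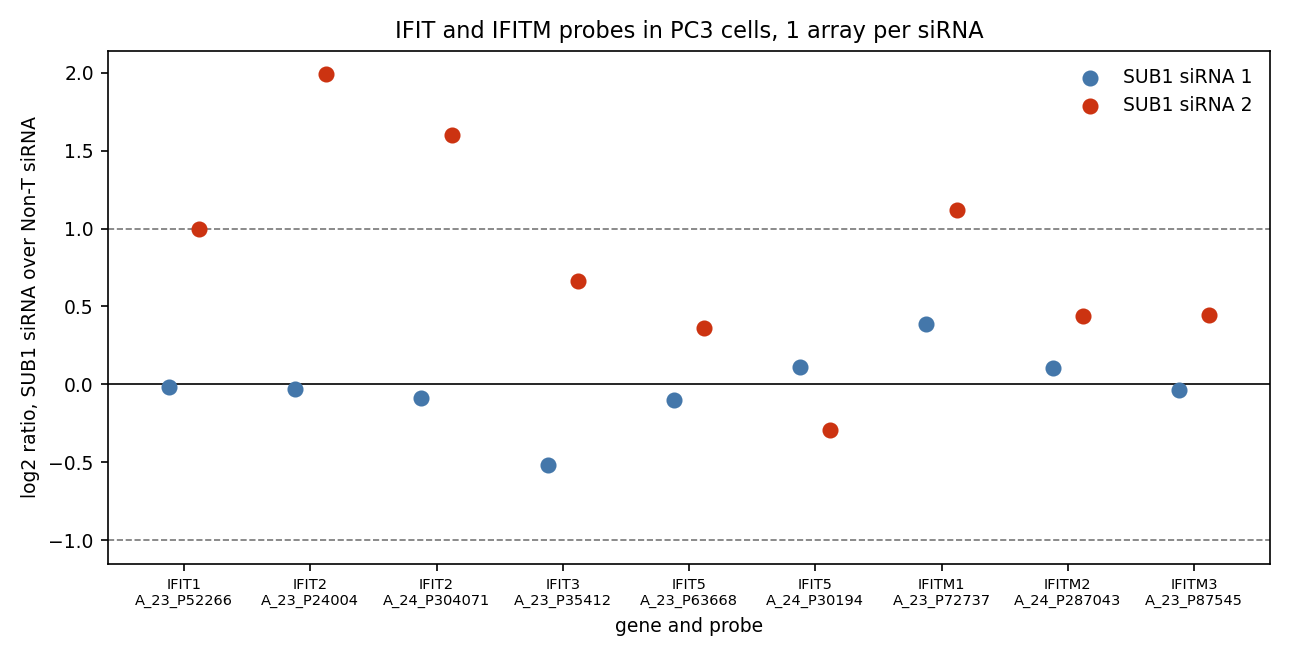
Log2 ratios of SUB1 siRNA over Non-T siRNA for the 9 probes, with 1 point per array, a solid line at 0 and dashed lines at 2-fold higher and lower. With siRNA 2 both IFIT2 probes (1.99 and 1.60) and IFITM1 (1.12) lie above the upper line, and with siRNA 1 every probe lies between the lines.

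IFIT2 binds RNA as a dimer and in complexes with other IFIT proteins. Its brighter probe, A_23_P24004 (hg18 chr10:91058377-91058436, NM_001547), gave an intensity of 14223 with Non-T siRNA and 18801 with SUB1 siRNA 1 on the first array, and 9704 with Non-T siRNA and 53926 with SUB1 siRNA 2 on the second. The signal with siRNA 2 was the highest of the 4, and that with siRNA 1 was above its own Non-T signal before loess but not after it. The log2 ratio was -0.03 with siRNA 1 and 1.99 with siRNA 2, a 3.98-fold higher level, which placed IFIT2 at rank 3 of 19218 genes with siRNA 2 and at rank 11279 with siRNA 1. The Non-T signal of this probe was itself lower on the second array, by a log2 difference of -0.31 once average intensities had also been put on 1 scale between arrays (Aquantile), outside the range of -0.228 to 0.231 that held the middle of all genes (percentiles 2.5 to 97.5). The SUB1 siRNA signals alone differed by 1.71.

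The second IFIT2 probe, A_24_P304071 (hg18 chr10:91056593-91056652), starts 1784 bases upstream and was much dimmer. Its intensities were 609 (Non-T) and 665 (SUB1 siRNA 1) on the first array and 533 (Non-T) and 1923 (SUB1 siRNA 2) on the second. Only the signal with siRNA 2 stood apart, as at the brighter probe. Its log2 ratio was -0.09 with siRNA 1 and 1.60 with siRNA 2, a 3.04-fold higher level, and its Non-T signals differed by 0.055 on the log2 scale. Thus the probes gave the same side of the 2-fold rule on each array.

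IFIT1 binds messenger-like RNA whose cap lacks ribose methylation, as viral RNA often does. Its probe A_23_P52266 (hg18 chr10:91153418-91153477, NM_001548) gave 19299 (Non-T) and 26129 (SUB1 siRNA 1) on the first array, and 16378 (Non-T) and 46168 (SUB1 siRNA 2) on the second. The log2 ratio was -0.02 with siRNA 1, and siRNA 2 gave 0.996. This second value lay within a spot SD of the 2-fold line, and it passed the line under 4 of 10 other ways of processing, with values of 1.00 to 1.44. The alternatives that changed only the filter, outlier spots or probe rule could not move it and returned 0.996 again. With intensities scaled between arrays, the Non-T signals of IFIT1 differed by 0.010 and the SUB1 siRNA signals by 1.02. With loess within arrays alone, they differed by -0.21 and 0.80, where the medians of all genes were -0.19 and -0.16.

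IFIT3 joins IFIT1 in a complex and stabilises it. Its probe A_23_P35412 (hg18 chr10:91089342-91089401, NM_001549) gave 2028 (Non-T) and 1724 (SUB1 siRNA 1) on the first array, and 1703 (Non-T) and 3350 (SUB1 siRNA 2) on the second. Here the signal with siRNA 1 was the lower of its pair and the signal with siRNA 2 the higher. The log2 ratio was -0.52 with siRNA 1 and 0.67 with siRNA 2, both beyond the highest spot SD and both short of 2-fold. The Non-T signals differed by -0.013. IFIT3 was the member with the lowest ratio under siRNA 1, at rank 18449 of 19218, and at rank 478 with siRNA 2.

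IFIT5 binds RNA with a phosphorylated end and some cellular RNAs, and it was the member whose probes disagreed. Its probe A_24_P30194 (hg18 chr10:91169539-91169598, NM_012420) gave 962 (Non-T) and 1241 (SUB1 siRNA 1) on the first array, and 698 (Non-T) and 670 (SUB1 siRNA 2) on the second. Log2 ratios of 0.11 (siRNA 1) and -0.29 (siRNA 2) followed. After scaling between arrays, the Non-T signals of this probe differed by -0.25. That is also outside the range of -0.228 to 0.231 given above for the middle of all genes. The other probe, A_23_P63668 (hg18 chr10:91168323-91168382), starts 1216 bases upstream and gave 627 and 677 on the first array and 498 and 750 on the second, with log2 ratios of -0.10 and 0.36. The signs were opposite on both arrays. With siRNA 1 both values lay within the highest spot SD, and with siRNA 2 the probes differed by -0.65 (downstream minus upstream), well over the highest spot SD. No value reached 2-fold, and no direction is given for IFIT5, whose promoter holds 3 matches to the core.

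IFITM1 is found mainly at the plasma membrane. Its probe A_23_P72737 (hg18 chr11:305209-305268, NM_003641) gave 28821 (Non-T) and 53118 (SUB1 siRNA 1) on the first array, and 23570 (Non-T) and 74112 (SUB1 siRNA 2) on the second. Both SUB1 siRNA signals lay above both Non-T signals before correction, as they also did for IFIT1, IFIT2, IFITM2 and IFITM3. The log2 ratio reached 0.39 with siRNA 1, and siRNA 2 gave 1.12, a 2.17-fold higher level at rank 69 of 19218. IFITM1 had the highest ratio of the 7 genes with siRNA 1, and it was above the highest spot SD on both arrays.

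IFITM2 and IFITM3 are known mainly from endosomes, and their proteins are close in sequence to IFITM1. The IFITM2 probe A_24_P287043 (hg18 chr11:299109-299168, NM_006435) gave 7928 (Non-T) and 11150 (SUB1 siRNA 1) on the first array, and 6864 (Non-T) and 12398 (SUB1 siRNA 2) on the second. The IFITM3 probe A_23_P87545 (hg18 chr11:309855-309914, minus strand, NM_021034) gave 31174 (Non-T) and 42748 (SUB1 siRNA 1), and 28026 (Non-T) and 54991 (SUB1 siRNA 2). The log2 ratio of both genes was 0.44 under siRNA 2, and they were nearer to 0 with siRNA 1, at 0.10 for IFITM2 and -0.04 for IFITM3. The IFITM genes and their pseudogenes are related in sequence, and the probe sequences were not compared. The part of each gene in each signal is therefore uncertain and was not tested. A probe outside the rule, A_24_P254933 (hg18 chr11:310585-310650), is named on the array by a transcript also listed for the IFITM3 probe, and it read 0.16 and 0.64. The pseudogene IFITM4P on chromosome 6 read 0.10 and 0.65, and IFITM5, a bone-associated member of the family, read 0.24 and 0.095.

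In the order of the log2 ratios with siRNA 2, IFIT2 (1.99) stood first, followed by IFITM1 (1.12), IFIT1 (0.996), IFIT3 (0.67), IFITM3 (0.44), IFITM2 (0.44) and IFIT5 (-0.29). IFITM1 and IFIT1, IFIT3 and IFITM3, and IFITM3 and IFITM2 lay closer than 0.232, the highest spot SD on that array scaled to a difference. On the same array the probes of IFIT2 differed by 0.39 and those of IFIT5 by -0.65 (downstream minus upstream), so the gap of 0.33 between IFIT1 and IFIT3 is no firm order either.

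After scaling between arrays, the difference between the siRNAs lay mostly in the Cy5 channel. Over the 9 probes, the Non-T signal of the second array minus that of the first, on the normalized log2 scale, ranged from -0.31 to 0.068 with a median of -0.013. The SUB1 siRNA signals differed by -0.65 to 1.75 (siRNA 2 minus siRNA 1), with a median of 0.66. With loess within arrays alone, an alternative chosen after the data were seen, the medians were -0.24 (Non-T) and 0.46 (SUB1 siRNA), or -0.05 and 0.63 relative to all genes. Across all 19218 genes the SD of these differences was 0.117 for the Non-T channel and 0.313 for the SUB1 siRNA channel. Relative to their Non-T level, 8 of the 9 probes were therefore higher with siRNA 2 than with siRNA 1, and A_24_P30194 of IFIT5 was lower. By gene, at the brightest probe, 6 of 7 were higher, beside 9529 of all 19218 genes. The difference between the siRNAs has no replicate and was not tested.

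**Figure D3:**
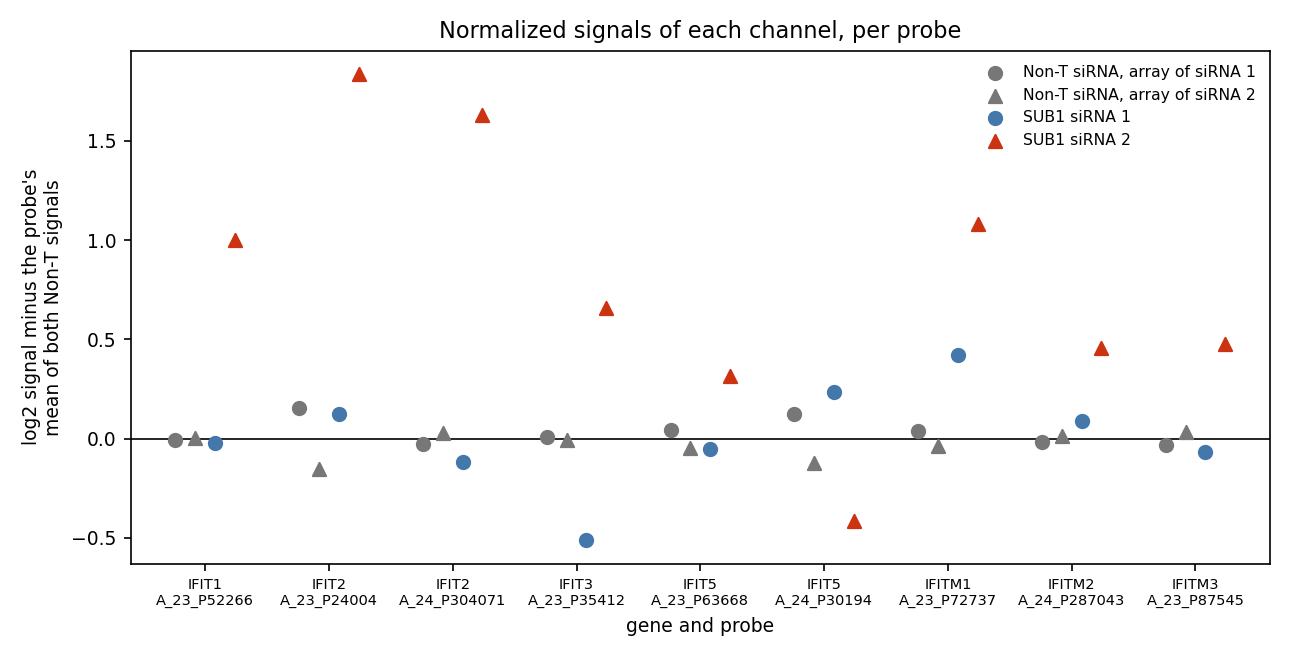
Log2 signals of the 9 probes in both channels of both arrays after loess and scaling between arrays, each minus the mean of the probe's 2 Non-T signals, with circles for the array of siRNA 1 and triangles for the array of siRNA 2. The Non-T points lie within 0.31 of each other for every probe, and the siRNA 2 point is the highest of the 4 for every probe other than A_24_P30194 of IFIT5.

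By family, the 4 IFIT genes had median log2 ratios of -0.02 (siRNA 1) and 0.83 (siRNA 2), with IFIT5 taken at its brighter probe. The 3 IFITM genes had medians of 0.10 and 0.44. With siRNA 2, 3 of 3 were above 0, beside 10296 of all 19218 genes. The IFITM medians were larger in the authors' table (0.22 and 0.73) and with median centring (0.43 and 0.92). All genes had medians of 0.024 on both arrays. The IFIT median with siRNA 1 is not a direction, since it read 0.066 to 0.34 with the Feature Extraction processed signals, the authors' table or median centring. The median difference of siRNA 2 minus siRNA 1 was 1.099 for IFIT genes and 0.48 for IFITM genes, beside -0.0022 for all genes, and it kept to 1.07 to 1.14 and 0.46 to 0.55 over 10 other ways of processing. Those that changed only the filter, outlier spots or probe rule returned the same differences.

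**Figure D4:**
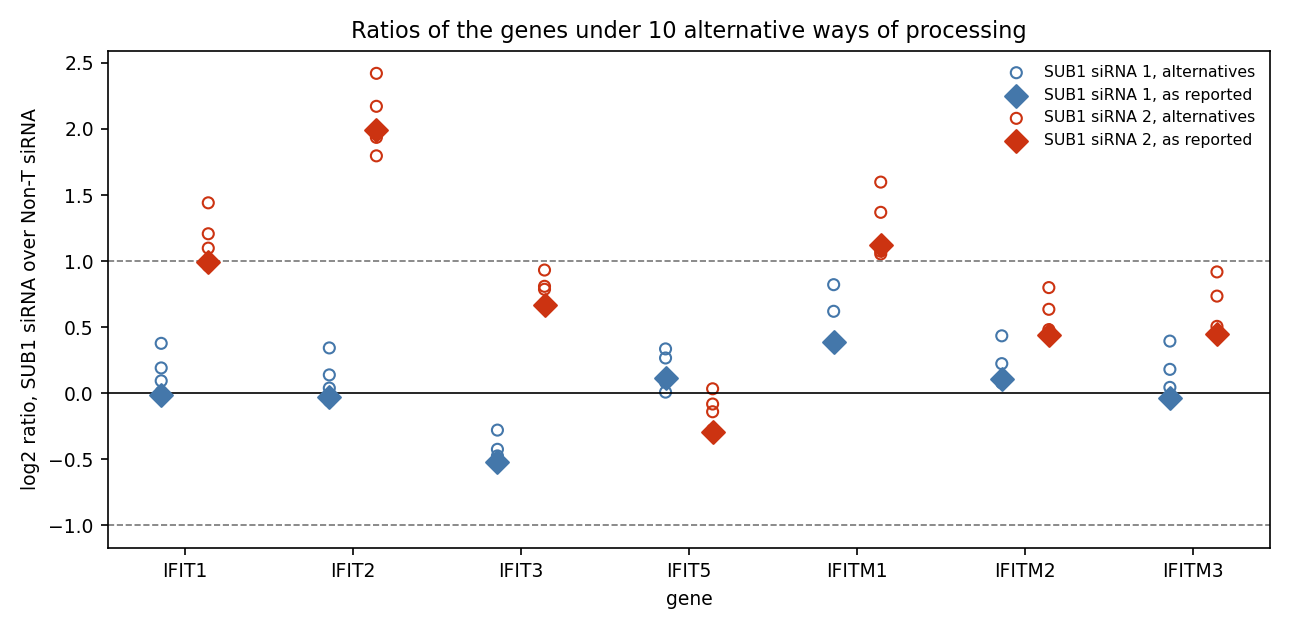
Log2 ratios of the 7 genes under the reported processing (diamonds) and 10 alternatives (open circles), by siRNA, with dashed lines at 2-fold higher and lower. The alternatives that changed only the filter or outlier spots repeat the reported values. IFIT2 with siRNA 2 stays between 1.797 and 2.42 and IFITM1 between 1.05 and 1.60, whereas the siRNA 1 values of IFIT1, IFIT2 and IFITM3 lie on both sides of 0.

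To ask whether a gene moved in the same way with both duplexes, limma was run across 19218 genes on the average of the 2 log2 ratios against 0, with each siRNA as 1 value. After Benjamini-Hochberg adjustment 0 of 7 members passed, and 0.0052% of all genes did, which was SUB1 alone (mean -3.28 ± 0.0948, SE, limma adjusted p = 0.0255). IFITM1 had the mean nearest to passing, 0.75 ± 0.197 (SE), with a limma adjusted p of 0.159, and it was the 1 member of 7 with an unadjusted p under 0.05, as 4010 of 19218 genes had. The mean of IFIT2 was 0.98 ± 0.487 (limma adjusted p = 0.323) and that of IFIT1 was 0.49 ± 0.257 (limma adjusted p = 0.344), where the values of the siRNAs were far apart. The limma adjusted p of IFIT3, IFIT5, IFITM2 and IFITM3 lay between 0.292 and 0.906. A p above the threshold from 2 arrays does not show that a member was unchanged. With SUB1 siRNA in Cy5 on both arrays, a p below the threshold cannot tell knockdown from dye. Since a shared Non-T extract is neither stated nor excluded by the sources, it is unknown whether the spread between Non-T cultures enters these p-values.

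The other genes of the interferon pathway were read from lists, upstream to downstream. These lists were chosen with earlier results of these data known. Of 10 interferon genes, 1 was above background in all 4 signals, IFNL2, which read 0.10 with siRNA 1 and 0.26 with siRNA 2. IFNB1, IFNE and IFNL1 were above background in the SUB1 siRNA channel alone on both arrays, so that no ratio is given for them. These 4 genes are named after their values were seen. On the whole, Cy5 had more gene spots well above background (67.2% and 64.5%) than Cy3 (54.3% on both arrays). The 5 measured receptor genes of 6 had medians of -0.02 and 0.12. Neither IFNL2 nor any measured receptor gene was changed 2-fold with either siRNA. Few of all genes were, with 0.208% higher and 0.609% lower for siRNA 1, and 0.614% and 1.07% for siRNA 2.

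The 13 signalling genes had medians of -0.04 with siRNA 1 and 0.20 with siRNA 2, and none was changed 2-fold. IRF9, the part of the complex that gives it its hold on the response element, named here after its values were seen, read 0.54 and 0.62, and STAT2, named likewise, read -0.31 and 0.15. Of 13 genes for sensing nucleic acids 11 were measured, with medians of -0.05 and 0.14, or -0.05 and 0.35 for the 9 above background in all 4 signals. Among them, 2 were at least 2-fold higher with siRNA 2, where 0.614% of all genes were. They were IFIH1, a cytoplasmic sensor of double-stranded RNA (0.24 with siRNA 1 and 1.37 with siRNA 2), and TLR3, an endosomal one (0.04 and 1.13).

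Of the lists, that of other interferon-stimulated genes had the median nearest to that of the IFIT genes with siRNA 2. Of 31 in the list, 29 were measured, and their median was -0.02 with siRNA 1 and 0.76 with siRNA 2. None was 2-fold higher with siRNA 1 and 10 were with siRNA 2, beside 0.208% and 0.614% of all genes. As the list was chosen with earlier results of these data known, these counts are a description and no independent support. With either siRNA 0 were 2-fold lower, where only 0.609% (siRNA 1) and 1.07% (siRNA 2) of all genes were. RSAD2, the antiviral enzyme viperin, read 0.05 and 2.42, and ISG15, a ubiquitin-like modifier, read 0.67 and 1.83. RTP4 read 0.67 and 2.01, and GBP1, a guanylate-binding GTPase, read 0.16 and 1.46. The remaining 6, XAF1, OASL, TRIM22, SAMD9L, IFI6 and IFI27, lay between -0.19 and 0.46 with siRNA 1 and between 1.02 and 1.42 with siRNA 2. The core shown above was found in the promoters of 20 of 27 genes of this list (74.1%), beside 4.38% of all genes with a promoter.

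**Figure D5:**
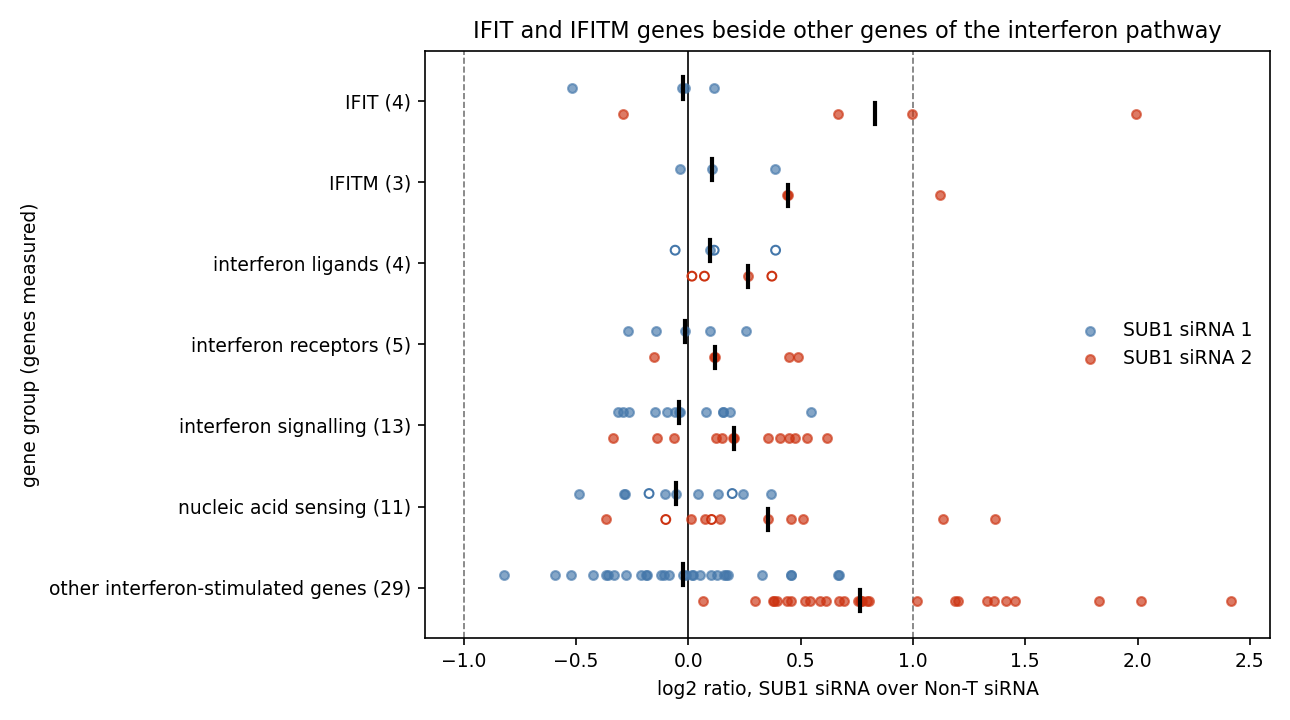
Log2 ratios of the measured genes in the IFIT and IFITM families and in 5 lists of the interferon pathway, with 1 point per gene, open points for the 5 genes not above background in all 4 signals, black bars at the medians of the filled points and dashed lines at 2-fold. With siRNA 2 the medians are 0.83 for IFIT genes, 0.44 for IFITM genes and 0.76 for other interferon-stimulated genes, and with siRNA 1 every median lies between -0.054 and 0.10.

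Genes next to the clusters were read to see whether the ratios followed position. Beside or within the IFIT cluster, 3 of 7 protein-coding neighbours were measured. LIPA, a lysosomal lipase gene, read 0.44 with siRNA 1 and 0.46 with siRNA 2, PANK1 read -0.04 and 0.15, and KIF20B read 0.04 and -0.03. Around the IFITM cluster 5 of 6 were measured (PGGHG, IFITM5, B4GALNT4, PKP3 and SIGIRR), and they lay between -0.32 and 0.30 with siRNA 1 and between -0.02 and 0.25 with siRNA 2. None of these neighbours was changed 2-fold. Since only 0.208% of all genes were 2-fold higher and 0.609% lower with siRNA 1, and 0.614% and 1.07% with siRNA 2, so few neighbours cannot show whether the ratios followed position.

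The genes with the pair of ratios nearest to the IFIT medians were SMIM14, BG547557, HLA-B, AK092921 and IFI16, at a Euclidean distance of 0.020 to 0.060 over the 2 arrays. Nearest to the IFITM medians were GPATCH2, TMEM140, ZSCAN5A, IER2 and H4C9, at 0.010 to 0.017. Likeness over 2 arrays is a description of these values and of nothing else.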

How the data were processed

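The members and gene lists were chosen with earlier results of these data known. Per array, the authors deposited Agilent Feature Extraction 9.5.1.1 output, with spot and local background intensity in both channels, flags for outlier, saturated and well-above-background spots, and probe coordinates on hg18. The authors also deposited log2 ratios normalized by loess on each array (agilp), whose correlation with ratios from median signals (loess, no background correction) was 0.958 (siRNA 1) and 0.970 (siRNA 2). Their direction was taken from that correlation. The Feature Extraction log ratios were not used.

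Mean signals were corrected with median background by normexp (offset 50) and normalized within arrays by limma 3.58.1 (R 4.3.3) with loess at a span of 0.3. Signals of single channels were also scaled between arrays (Aquantile); ratios were not. Control spots were left out after normexp. Spots flagged as outliers took part in normexp and loess and were left out when the spots of a probe were averaged. Probes with at least 0.5 of spots well above background in 1 or more channels on both arrays were kept. The brightest probe stood for a gene. Named genes were the members, SUB1, list genes changed 2-fold, the 5 genes nearest to each family median, and neighbours (3 per side). Cell markers, probes related to IFITM and the interferon pathway genes said to be so were named outside this rule. Some genes of the marker and pathway lists are not reported here. The fit (lmFit with an intercept, eBayes, Benjamini-Hochberg) was tested on simulated data. The number of arrays limits the precision. The alternatives changed the background correction, normalization, filter, starting values, probe rule and prior. Neighbours, promoters and symbols came from RefSeq tables of GRCh38.p14, and no coordinates were converted between builds.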

Additional observations from a re-analysis of the deposited data

Results flagged for a closer look

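IFIT3 gave opposite signs with the siRNAs, each beyond the highest SD of probes with 10 spots, at a log2 ratio of -0.52 with SUB1 siRNA 1 and 0.67 with SUB1 siRNA 2. Each value comes from 1 spot on 1 array, and the difference between the siRNAs was not tested. The signs held under 10 alternatives, at -0.53 to -0.28 and 0.66 to 0.93. Those that changed only the filter, outlier spots or probe rule could not move these values.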

How the results depend on the processing

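Results were set beside their alternatives 382 times, and 340 times they were counted as the same. This did not always mean an unchanged count or side of the 2-fold line. A rise from 2 to 3 members at least 2-fold higher with siRNA 2 was counted as the same. So was a rise of the IFIT median with siRNA 2 from 0.83 to 1.19 with median centring. Part of the agreement was fixed in advance. Alternatives that changed only the filter or outlier spots repeated every member ratio, and those that changed only the prior repeated every mean. The probe rule could not move a member with 1 probe. No called value changed sign. The number of members at least 2-fold higher was 0 with siRNA 1 under all 10 alternatives and 2 to 3 with siRNA 2. The third was IFIT1, at 1.00 with a normexp offset of 16, 1.098 with Feature Extraction processed signals, 1.21 with the authors' table and 1.44 with median centring. With the mean of both probes in place of the brightest, IFIT5 read 0.033 with siRNA 2. The IFIT median with siRNA 1 became 0.066 with Feature Extraction signals, 0.12 with the authors' table and 0.34 with median centring, and the IFITM median lay between 0.077 and 0.43 for siRNA 1 and between 0.44 and 0.92 for siRNA 2. The median of other interferon-stimulated genes, an alternative run added after the data were seen, lay between -0.08 and 0.21 for siRNA 1 and between 0.69 and 1.02 for siRNA 2.

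Over all genes, those at least 2-fold higher numbered 84 and 189 (siRNA 1 and siRNA 2) with offset 16, 137 and 266 with median centring and 983 and 1248 with Feature Extraction signals, beside 40 and 118. The share of higher genes among those changed 2-fold was 25.5% and 36.5%, against 71.0% and 72.5% with median centring, 82.1% and 78.3% with Feature Extraction signals, and 36.7% and 47.4% with the authors' table, and with offset 16 it was 37.0% for siRNA 1. Median centring placed the median of all genes at 0.13 and 0.12 and Feature Extraction signals at 0.14 and 0.17, and ratios under these are to be read against that shift.

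In limma, 0 genes passed the adjusted p without background correction, with median spot signals, median centring, Feature Extraction signals or the authors' table (4081, 4020, 5707, 4512 and 4141 at an unadjusted p under 0.05). Without a filter 129 passed, and 3 probes passed when every probe was tested. The limma adjusted p of SUB1 ranged from 0.00251 to 0.175 and that of IFITM1, the lowest among members, from 0.0774 to 0.192. No member passed under any alternative. No paired analysis was possible because each siRNA had 1 array, and leaving out an array leaves the value of the other siRNA with no test. The slide could not serve as a block, since both arrays shared it. Signal over background was not a limit for the members.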
